A study of Mus musculus with 36 samples.

Results

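The genes described here are 40 mouse genes of the unfolded protein response and the integrated stress response, listed by symbol and matched to the Ensembl identifiers of the count tables, which hold 52636 genes. They fall into an ATF4 branch of 22 genes and an endoplasmic reticulum (ER) branch of 18 genes. They were measured by RNA sequencing in organoids, which are small epithelial structures grown from crypts of the jejunum of C57BL/6 mice, in 6 groups of 6 libraries. The medium of a group was complete media (IntestiCult), QCM (complete media with medium conditioned by quiescent, serum-deprived mouse embryonic fibroblasts), SCM (the same with medium of senescent fibroblasts) or complete media with the ligand Wnt5a. Every culture also received an antibody, which was control IgG in 4 groups, 1 for each medium, and an antibody against the receptor Ptk7 (anti-Ptk7) in the other 2, 1 in SCM and 1 in Wnt5a. No library analysed here had anti-Ptk7 in complete media or QCM. An effect of the antibody alone can therefore not be told apart from an effect on the response to SCM or Wnt5a. The cultures go back to crypts of 6 mice, but a library is not tied to a mouse in the labels, so p values measure the spread between libraries of a group. In bulk RNA, fewer cells of a type and less RNA per cell cannot be told apart.

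Both responses slow protein synthesis and change transcription when a cell is under load. Kinases that sense unfolded protein in the ER, amino acid shortage, double-stranded RNA or lack of heme phosphorylate the initiation factor eIF2, which lowers general translation but raises that of the transcription factor ATF4, and ATF4 switches on genes for amino acid synthesis and uptake, tRNA charging and feedback. In the ER, the sensor Ire1 (Ern1, with its mucosal relative Ern2) splices the Xbp1 transcript and the sensor ATF6 is cleaved, and both yield factors that raise ER chaperones and the disposal of misfolded protein. In the intestine these genes are best known from the secretory Paneth and goblet cells, whose ER is extensive.

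The upstream sequences of the members differ between the branches. In RefSeq promoter windows of GRCm38.p6, which run from 250 bases before to 50 bases after each start, the ER stress response element, spelled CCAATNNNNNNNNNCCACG and searched on both strands, was present in 37 of 27025 genes (0.137%). It was present in 7 of the 15 ER branch members with a window (46.7%) and in 0 of the 20 ATF4 branch members with a window. The core of the composite site of C/EBP and ATF proteins, spelled TGATGNAA, was present in 4.51% of all genes, in 6 of 20 ATF4 branch members and in 1 of 15 ER branch members, Herpud1. The short core ACGTG, a part of XBP1 and ATF6 sites, was present in 21.8% of all genes, in 8 of 20 ATF4 branch members and in 6 of 15 ER branch members. A match describes letters and not binding. The ER element was itself first defined in promoters of ER chaperones, so its share in the ER branch is not independent of the choice of genes. Cth, Slc7a5, Ern2, Hyou1 and Manf had no window. The stretches that hold the ER element are shown because it was found in ER branch members and in no ATF4 branch member. Each is read along the gene with the element, or its reverse complement, in capitals and with 20 bases on either side.

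Hspa5 (chr2:34772005-34772063, plus strand): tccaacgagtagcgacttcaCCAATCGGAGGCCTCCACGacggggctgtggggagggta

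Hsp90b1, distal (chr10:86705618-86705676, minus strand): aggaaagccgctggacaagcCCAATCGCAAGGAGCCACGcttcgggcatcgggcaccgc

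Hsp90b1, proximal (chr10:86705513-86705571, minus strand): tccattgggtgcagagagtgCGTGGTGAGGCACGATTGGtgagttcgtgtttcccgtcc

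Calr (chr8:84847055-84847113, minus strand): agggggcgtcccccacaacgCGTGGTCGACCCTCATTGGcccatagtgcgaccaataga

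Canx (chr11:50325780-50325838, minus strand): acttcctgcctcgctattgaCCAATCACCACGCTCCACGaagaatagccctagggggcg

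Pdia6 (chr12:17266471-17266529, plus strand): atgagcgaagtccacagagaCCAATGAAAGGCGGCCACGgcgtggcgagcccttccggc

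Creld2 (chr15:88819500-88819558, plus strand): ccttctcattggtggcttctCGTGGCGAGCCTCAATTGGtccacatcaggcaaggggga

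Dnajc3 (chr14:118937807-118937865, plus strand): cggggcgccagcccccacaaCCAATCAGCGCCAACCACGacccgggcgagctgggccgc

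The C/EBP and ATF core is shown for members of the ATF4 branch on opposite sides of the results below, 2 whose transcripts changed (Chac1 and Pycr1), 1 that changed by a smaller amount (Asns) and 1 that did not pass the adjusted p (Slc7a11), in the same format. The stretch of Asns ends at the base before the start.

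Chac1 (chr2:119351029-119351076, plus strand): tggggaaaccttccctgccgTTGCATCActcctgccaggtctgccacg

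Pycr1 (chr11:120643824-120643871, minus strand): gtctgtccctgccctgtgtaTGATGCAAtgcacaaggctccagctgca

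Asns (chr6:7693210-7693252, minus strand): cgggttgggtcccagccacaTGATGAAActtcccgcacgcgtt

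Slc7a11 (chr3:50443633-50443699, minus strand): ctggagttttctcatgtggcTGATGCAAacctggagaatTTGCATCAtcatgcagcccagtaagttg

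A library held between 9581589 and 21029769 counts, and 15497 genes, all 40 members among them, passed the filter on low counts. Checked against the organoid label, 7 epithelial markers summed to between 8366 and 31930 CPM (counts scaled to library size, as all levels here) in every library. Of these 7, 5 were higher than in complete media at the adjusted p in SCM and 6 in Wnt5a, and the median sum was 9224 CPM in complete media, 15250 in SCM + IgG and 15560 in Wnt5a + IgG, and their part in the results was not tested. In contrast, 7 fibroblast markers summed to at most 1.32 CPM and Col3a1, Dcn and Thy1 had no count in any library. SCM + IgG replicate 1 stood apart from its group for 2 members, Aldh18a1 and Pdia4, and held the lowest ER branch level under IgG. Replicate 1 of Wnt5a + IgG and of Wnt5a + anti-Ptk7 had scaling factors of 0.926 and 0.908, against 0.978 to 1.025 in the other libraries, and the lowest levels of both branches in their groups. Without replicate 1 of every group, 13 members were lower in Wnt5a and 17 with anti-Ptk7 in Wnt5a at the adjusted p, beside 16 and 17 with all libraries.

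In organoids in complete media the ER chaperones were the most abundant members by CPM per kilobase of exon. Exon length joined all annotated exons of a gene, whereas counts came from coding sequences, so the order also depends on untranslated and alternative exons. CPM per kilobase of exon averaged 351 for Calr, the calcium-binding lectin chaperone, 308 for Hspa5, the Hsp70 chaperone BiP, and 228 for Hsp90b1, the ER form of Hsp90. The most abundant genes of the ATF4 branch were Aldh18a1, an enzyme of proline synthesis, at 159, Asns, asparagine synthetase, at 140.4 and Atf4 itself at 118. Ddit3, which encodes the pro-apoptotic factor CHOP, was low at 5.25, as were the sensor Ern1 at 1.72 and the secreted hormone gene Stc2 at 0.958.

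A branch level was computed for each library as the median over its members of the log2 CPM less the gene's mean in complete media. For the ATF4 branch it was -0.08 ± 0.09 in QCM + IgG, -0.28 ± 0.05 in SCM + IgG, -0.38 ± 0.10 in Wnt5a + IgG, -0.40 ± 0.06 in SCM + anti-Ptk7 and -0.72 ± 0.11 in Wnt5a + anti-Ptk7 (mean ± SD of 6 libraries). The libraries of Wnt5a + anti-Ptk7, from -0.87 to -0.56, lay below all libraries of the other groups, of which the lowest was a Wnt5a + IgG library at -0.48. The ER branch level was -0.13 ± 0.05 in QCM + IgG, -0.19 ± 0.06 in SCM + IgG, -0.10 ± 0.08 in Wnt5a + IgG, -0.43 ± 0.05 in SCM + anti-Ptk7 and -0.45 ± 0.11 in Wnt5a + anti-Ptk7. Its lowest library under IgG was SCM + IgG replicate 1 at -0.30, and the antibody libraries lay between -0.59 and -0.31. In SCM + anti-Ptk7 and Wnt5a + anti-Ptk7 the ER branch levels overlapped, whereas those of the ATF4 branch did not. The mean levels of both branches lay further below complete media with anti-Ptk7 than with IgG, in SCM and in Wnt5a.

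**Figure D1:**
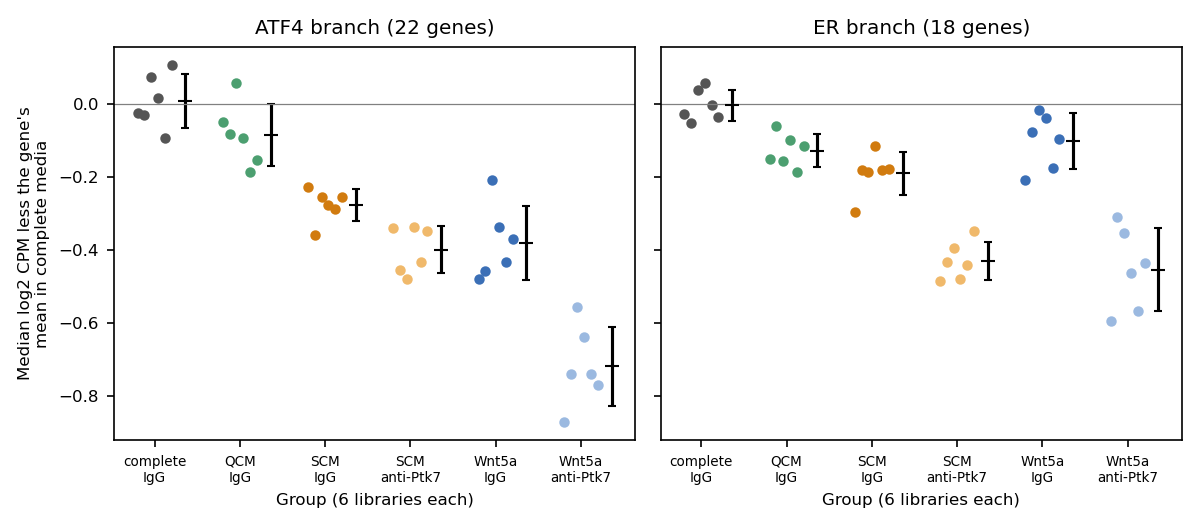
Branch level of each library, the median over the genes of a branch of log2 CPM less the gene's mean in complete media, by group, with 6 libraries (points) and mean ± SD (black) per group. The ATF4 branch was lowest in Wnt5a + anti-Ptk7 (-0.72 ± 0.11), and the ER branch lay lower in both antibody groups (-0.43 ± 0.05 and -0.45 ± 0.11) than in their IgG groups.

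The 10 members called in any comparison lie on GRCm38 at chr3:157894248-157925077 (Cth), chr8:121881150-121907694 (Slc7a5), chr19:15904678-15947337 (Psat1), chr11:120635712-120643769 (Pycr1), chr10:127517123-127522444 (Shmt2), chr6:83305691-83325908 (Mthfd2), chr4:132492032-132510501 (Sesn2), chr2:152337422-152344032 (Trib3) and chr16:17130138-17132383 (Sdf2l1), all on the minus strand, and chr2:119351229-119354381 (Chac1) on the plus strand, and all are protein-coding genes. Each comparison asked which members differed between groups of 6 libraries, with edgeR's quasi-likelihood test and Benjamini-Hochberg adjustment over all 15497 genes. The questions were whether conditioned medium of senescent fibroblasts or Wnt5a changed the organoids, and whether organoids in SCM or Wnt5a differed between anti-Ptk7 and IgG. A member is said to be called when its adjusted p was under 0.05 and its fold change over 1.5 (0.58 on the log2 scale), the thresholds of the study, and to pass the adjusted p alone whatever its fold, so that counts by the adjusted p alone include the called members. QCM, SCM and Wnt5a were compared with the same 6 libraries of complete media, and SCM + IgG also served as the reference of anti-Ptk7 in SCM and Wnt5a + IgG as that in Wnt5a.

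In QCM, none of the 40 was called by edgeR against complete media, where 0.374% of all genes were called, and none by voom with limma or DESeq2. At an unadjusted p under 0.05 there were 12 of the 40 members, beside 1858 of all 15497 genes. Values below 0 were found in 30 of the 40 members, beside 7070 of all genes. The median log2 fold change was -0.072 over the ATF4 branch and -0.135 over the ER branch, beside 0.02 over all genes. No member was higher by edgeR at the adjusted p alone, where 0.542% of all genes were. With DESeq2 Cebpb was. Hspa5 and Asns passed the adjusted p alone, both lower, where 0.116% of all genes were lower by that rule. Neither passed without the filter on low counts or with glmTreat. Hspa5 was at a median of 1297 CPM (1266 to 1343) in complete media and 1084 (1026 to 1133) in QCM, so the groups did not overlap (log2 fold change -0.27 ± 0.06 SE, adjusted p = 0.0088). Asns was at a median of 382 CPM (365 to 414) in complete media and 319 (276 to 338) in QCM, again without overlap (-0.28 ± 0.07, adjusted p = 0.0455). With Cth, 3 of 40 members were lower in QCM without overlap, against 0.361% of all genes. The change of Asns no longer passed in 10 of the 12 fits that left out 1 library, all but those without complete media + IgG replicate 1 or QCM + IgG replicate 6, with an adjusted p of up to 0.131.

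Genes of both branches were lower in SCM than in complete media, and none was higher by edgeR at the adjusted p alone, where 7.43% of all genes were. Ddit4 was higher by that rule with DESeq2, under the replicate block, with at least 10 counts in every library, with only the groups compared, without complete media + IgG replicate 5 and without replicate 1 of every group. Cth and Slc7a5 were called lower (2 of 40, against 1.12% of all genes called lower), and 18 members were lower at the adjusted p alone (against 4.45%), 10 of the ATF4 branch and 8 of the ER branch. The median log2 fold change was -0.32 over the ATF4 branch and -0.21 over the ER branch, and 0.01 over all genes tested. In 10 of the 40 no SCM library reached the lowest library of complete media, against 2.53% of all genes.

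Cth encodes cystathionine gamma-lyase, which makes cysteine from methionine-derived cystathionine, and had the largest change of the members. It was at a median of 216 CPM (172.6 to 220.1) in complete media, 148 (128 to 172) in QCM, 96.2 (77.5 to 115) in SCM and 89.9 (55.8 to 113) in Wnt5a. Neither QCM, SCM nor Wnt5a libraries overlapped those of complete media, and the highest SCM library lay below the lowest QCM library. The log2 fold change against complete media was -1.06 ± 0.14 in SCM (adjusted p = 3.95e-06) and -1.20 ± 0.14 in Wnt5a (adjusted p = 2.67e-07), and in QCM the value was -0.46 ± 0.14 (adjusted p = 0.139). In QCM Cth passed the adjusted p with DESeq2 (0.0454), the replicate block (0.00323), only the groups compared (0.0143) and without replicate 1 of every group (0.0203). Slc7a5, the light chain of the large neutral amino acid transporter, was at a median of 196 CPM (163 to 230.4) in complete media and 125 (117 to 143) in SCM, with no overlap (-0.62 ± 0.11, adjusted p = 0.000113). Its partner chain Slc3a2 passed the adjusted p alone (-0.32 ± 0.08, adjusted p = 0.00954), and the cystine carrier Slc7a11, which varied from 13.2 to 47.6 CPM within complete media, did not pass (0.04).

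Of the 9 enzymes of amino acid and one-carbon metabolism, 6 were lower in SCM at the adjusted p. Besides Cth these were Mthfd2 and Shmt2 of the mitochondrial folate pathway at -0.48 ± 0.11 and -0.40 ± 0.10, the serine synthesis enzymes Psat1 and Psph at -0.43 ± 0.08 and -0.32 ± 0.11, and Asns at -0.40 ± 0.07. Among the feedback genes, Trib3, a pseudokinase that restrains ATF4 (-0.48 ± 0.15), and Sesn2, a leucine sensor that restrains mTORC1 (-0.39 ± 0.11), were lower, while Chac1 did not pass, with a value of 0.00 ± 0.18. None of the 5 transcription factors of the branch (Atf4, Atf5, Ddit3, Cebpb, Nupr1) passed the test in SCM. In the ER branch the lower members were Herpud1, Hspa5, Hyou1, Sdf2l1, Xbp1, Calr, Pdia4 and Pdia6. Hsp90b1 was lower too with DESeq2, voom on TMM-scaled values, upper-quartile scaling, the replicate block, only the groups compared and without replicate 1 of every group, with adjusted p values from 0.00817 to 0.0499, and without 1 library in 4 of the 12 fits. Herpud1, a membrane protein of ER-associated degradation, had the largest of these changes (-0.57 ± 0.07, adjusted p = 2.25e-06), with a median of 271 CPM (246 to 296) in complete media and 175 (169 to 206) in SCM and no overlap. It was just short of the fold threshold, and its fold passed in 4 of the 12 fits without 1 library. In those fits Psph passed the adjusted p in 2 of 12, Hyou1 in 4, Pdia4 in 6, Trib3 in 7 and Xbp1 in 10, lost without SCM + IgG replicate 1 or complete media + IgG replicate 2, and 2 to 4 members were called, with 4 without SCM + IgG replicate 3 or 5. Without SCM + IgG replicate 1, 9 members of the ATF4 branch and 5 of the ER branch passed the adjusted p.

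Against QCM, the medium of non-senescent fibroblasts, 1 member was called lower in SCM, Cth (-0.60 ± 0.14, adjusted p = 0.0252, with 0.142% of all genes called lower). Herpud1 (-0.41 ± 0.07, adjusted p = 0.00326) and Sesn2 (-0.40 ± 0.10, adjusted p = 0.0386) passed the adjusted p alone, where 0.71% of all genes were lower. Under the replicate block Mthfd2 (-0.318, adjusted p = 0.0103) and Shmt2 (-0.305, adjusted p = 0.0189) passed too. Sesn2 passed in 4 of the 12 fits without 1 library (adjusted p up to 0.124). Cth and Sesn2 did not overlap between the groups (2 of 40, against 1.1% of all genes). Of the 22 ATF4 branch members, 20 had a value below 0 and the median was -0.17. In the ER branch 12 of 18 had a value below 0 and the median was -0.05, beside -0.01 over all genes. The call of Cth was lost in 7 of the 12 fits that left out 1 library, which were those without QCM + IgG replicates 2, 3, 4 or 6 or SCM + IgG replicates 1, 4 or 6, with log2 fold changes between -0.66 and -0.53.

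In Wnt5a 7 members were called lower against complete media, all of the ATF4 branch (7 of 40, against 1.88% of all genes called lower), and 16 members were lower at the adjusted p alone, 12 of the ATF4 branch and 4 of the ER branch (against 9.4%). The members called were the enzymes Cth, Pycr1, Psat1, Shmt2 and Mthfd2, and the feedback genes Sesn2 and Trib3. Of the 9 enzymes, 8 passed the adjusted p and Aldh18a1 did not (-0.09). The median log2 fold change was -0.34 over the ATF4 branch and -0.11 over the ER branch, beside 0.01 over all genes.

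Psat1, which carries out the transamination step of serine synthesis, was at a median of 241 CPM (226 to 273) in complete media and 163 (138 to 187) in Wnt5a (-0.60 ± 0.08, adjusted p = 3.36e-06). Pycr1, the last enzyme of mitochondrial proline synthesis, was at 19.7 (16.4 to 22.4) and 12.3 (9.57 to 15.5), with a log2 fold change of -0.67 ± 0.15 (adjusted p = 0.00145). Shmt2, which passes a carbon from serine to folate in mitochondria, was at 314 (273 to 370.4) and 202 (191 to 244), and changed by -0.60 ± 0.10 (adjusted p = 4.27e-05). In none of these 3 genes did a Wnt5a library reach the lowest library of complete media. Mthfd2, the next enzyme of that pathway, was at 131 (105 to 151) and 87.1 (66.2 to 101), again without overlap (-0.59 ± 0.11, adjusted p = 0.000204). Sesn2 was at 79.7 (69.6 to 84.4) and 52.8 (44.2 to 58.5), changed by -0.59 ± 0.11 (adjusted p = 0.000103) and did not overlap. Trib3 was at 30.98 (25.5 to 38.4) and 22.3 (13.5 to 22.95), changed by -0.59 ± 0.15 (adjusted p = 0.00381) and did not overlap. Of the 40 members, 11 were lower in Wnt5a with no overlap between the groups, against 4.81% of all genes.

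The other enzymes Asns, Psph and Phgdh passed the adjusted p alone, at -0.43 ± 0.07, -0.54 ± 0.11 and -0.34 ± 0.11, as did Slc7a5 at -0.34 ± 0.11. Atf4 itself was at a median of 281 CPM (233 to 309) in complete media and 227 (185 to 263) in Wnt5a (-0.28 ± 0.10, adjusted p = 0.0306), with overlapping groups. In the ER branch Sdf2l1, a component of the ER chaperone complex around Hspa5 (-0.53 ± 0.10), Herpud1 (-0.45 ± 0.07), Pdia6 (-0.28 ± 0.07) and Xbp1 (-0.20 ± 0.07) were lower. Hspa5 did not pass, at a median of 1297 CPM in complete media and 1240.0 (1038 to 1306) in Wnt5a. It did pass as lower with voom on quantile-normalized values (-0.20, adjusted p = 0.00619) and with library size alone (-0.149, adjusted p = 0.0427). By edgeR, 2 members were higher here at the adjusted p alone, where 12.5% of all genes were. They were Ddit4, an mTORC1 inhibitor induced by several stresses (0.52 ± 0.19, adjusted p = 0.0432), and the sensor Ern1 (0.49 ± 0.18, adjusted p = 0.0466). Both changes were lost with upper-quartile scaling, with library size alone, with voom on quantile-normalized values and without the filter, and in 8 and 9 of the 12 fits without 1 library.

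The folds of Mthfd2, Trib3, Sesn2, Shmt2 and Psat1 in Wnt5a lay within 0.02 of the threshold on the log2 scale, and each passed the adjusted p in all 12 fits without 1 library but the fold in 6 to 9 of them. The number of called members was therefore between 3 and 8 in those fits, lowest without Wnt5a + IgG replicate 2 and 4 without complete media + IgG replicate 1 or Wnt5a + IgG replicate 5. Atf4 passed the adjusted p in 8 of the 12, being lost without complete media + IgG replicate 1 or Wnt5a + IgG replicate 1, 2 or 5. Xbp1 passed in 6 of the 12, with an adjusted p of up to 0.163, and was lost without replicate 1, 2 or 5 of either group.

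**Figure D2:**
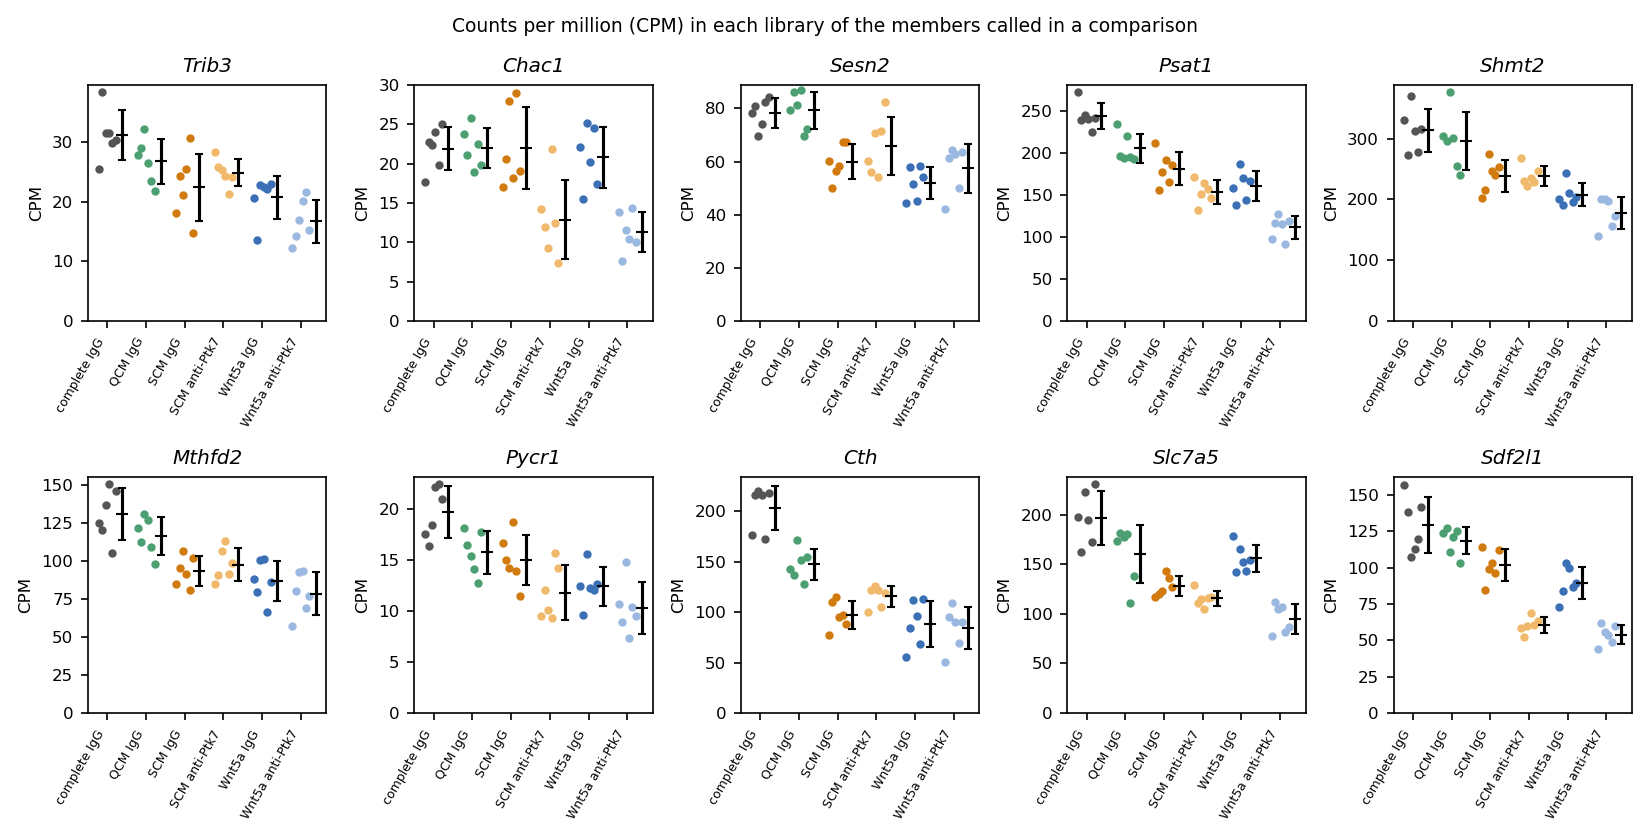
CPM of the 10 members called in at least 1 comparison, in each library (points, coloured by group, 6 per group) with mean ± SD (black). Cth was at 203 ± 22.2 in complete media, against 97.2 ± 13.7 in SCM and 88.2 ± 23.2 in Wnt5a, while Chac1 and Sdf2l1 were lower in the antibody groups than in their IgG groups.

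Of the 8 ER branch members grouped as chaperones and co-chaperones, 4 in SCM and 7 in Wnt5a were lower with anti-Ptk7 than with IgG at the adjusted p. Of the 4 grouped apart as lectin chaperones and disulfide isomerases (Calr, Canx, Pdia4 and Pdia6), 2 and 3 were. In SCM, Chac1 and Sdf2l1 were called lower against IgG (2 of 40, against 0.645% of all genes), and 7 members, 6 of them of the ER branch, were lower at the adjusted p alone (against 1.44%). In Wnt5a, Chac1, Sdf2l1 and Slc7a5 were called lower (3 of 40, against 0.432%), and 17 members were lower at the adjusted p alone, 10 of the ER branch and 7 of the ATF4 branch (against 1.52%). These fell to 11, 6 and 5 when only the groups compared entered the fit. No member was higher by edgeR at the adjusted p alone, where 1.28% of all genes were in SCM and 1.05% in Wnt5a. The median log2 fold change of the ER branch was -0.22 in SCM and -0.29 in Wnt5a, and that of the ATF4 branch -0.08 and -0.29, beside 0.00 and 0.01 over all genes.

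Sdf2l1 was at a median of 101 CPM (84.8 to 115) in SCM + IgG and 60.4 (52.2 to 68.7) in SCM + anti-Ptk7, and at 88.1 (73.3 to 104) in Wnt5a + IgG and 54.5 (44.1 to 62.2) in Wnt5a + anti-Ptk7. In both media every antibody library was below every IgG library (-0.75 ± 0.10, adjusted p = 2.86e-05 in SCM, and -0.73 ± 0.10, adjusted p = 3.14e-05 in Wnt5a). Chac1 encodes an enzyme that degrades glutathione and is a sensitive target of ATF4. It was at a median of 19.9 CPM (17.1 to 29) in SCM + IgG and 12.2 (7.36 to 21.9) in SCM + anti-Ptk7, where 1 antibody library lay within the IgG range, and it changed by -0.77 ± 0.19 (adjusted p = 0.0186). In Wnt5a it went from 21.1 (15.5 to 25.2) to 11 (7.57 to 14.4), with no overlap (-0.88 ± 0.19, adjusted p = 0.00683). The call of Chac1 in SCM did not hold when only SCM + IgG and SCM + anti-Ptk7 entered the fit (-0.76, adjusted p = 0.141).

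The ER branch members Creld2, Manf, Dnajc3, Calr and Pdia4 passed the adjusted p in both media. Calr, which retains glycoproteins in the ER until they fold, was at a median of 871 CPM (777 to 921) in SCM + IgG and 691 (667 to 739) in SCM + anti-Ptk7, and at 992 (856 to 1017) and 746 (616 to 789) in Wnt5a. Neither pair overlapped, with log2 fold changes of -0.30 ± 0.06 (adjusted p = 0.00764) and -0.43 ± 0.06 (adjusted p = 0.000151). Manf, a secreted ER chaperone, changed by -0.39 ± 0.08 and -0.48 ± 0.08, and Creld2, a disulfide isomerase-like protein, by -0.40 ± 0.08 and -0.40 ± 0.08. Dnajc3, the co-chaperone p58IPK, changed by -0.22 ± 0.06 and -0.28 ± 0.06, and Pdia4, a disulfide isomerase, by -0.28 ± 0.07 and -0.31 ± 0.07. In SCM Dnajc3 passed in 4 and Pdia4 in 6 of the 12 fits without 1 library, and the number at the adjusted p alone fell from 7 to 2 (Sdf2l1 and Calr) when only the 2 groups compared entered the fit.

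In Wnt5a 4 more of the ER branch passed. Hspa5 was at a median of 1240.0 CPM (1038 to 1306) with IgG and 1001 (879 to 1061) with anti-Ptk7, with 1 IgG library inside the antibody range (-0.31 ± 0.06, adjusted p = 0.00131). Hyou1, a large Hsp70 relative that exchanges nucleotide on Hspa5, was at 138 (126 to 148) and 92.8 (78.9 to 106), without overlap (-0.57 ± 0.11, adjusted p = 0.00253). Hsp90b1 (-0.48 ± 0.10) and Pdia6 (-0.38 ± 0.07) were lower too. Ern1, Ern2, Xbp1, Canx, Dnajb9 and the 3 genes of ER-associated degradation (Herpud1, Edem1, Sel1l) did not pass in either medium, with values from -0.26 to 0.18.

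The 7 ER branch members whose promoter window holds the ER element printed above had a median of -0.22 in SCM and -0.38 in Wnt5a. At the adjusted p 3 of these 7 were lower in SCM (against 1.44% of all genes) and 6, all but Canx, in Wnt5a (against 1.52%). Of the 8 ER branch members with a window but without these letters, Sdf2l1 and Pdia4 were lower in both media and the median was -0.11 in SCM and -0.17 in Wnt5a. Values below 0 were found in all 7 with the element and in 6 of the 8 without it, in each medium. Against complete media, 3 of 7 with the element and 4 of 8 without it were lower in SCM (against 4.45% of all genes), and 1 of 7 and 3 of 8 in Wnt5a (against 9.4%). Of the 30 other genes with the element, 10 passed the filter on counts, with a median of -0.01 in Wnt5a, and their lowest adjusted p with the antibody was 0.283 in SCM and 0.304 in Wnt5a, both of Derl3. All 7 members with the element are chaperones or disulfide isomerases. The 8 without it also include the sensor Ern1, the factor Xbp1 and the degradation genes Herpud1, Edem1 and Sel1l, so element and role cannot be told apart. These are counts over few genes, and the difference between them was not tested.

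In the ATF4 branch, genes of serine and asparagine synthesis and of amino acid uptake were lower with anti-Ptk7 in Wnt5a. Slc7a5 was at a median of 154 CPM (142 to 178) in Wnt5a + IgG and 95.6 (77.4 to 112) in Wnt5a + anti-Ptk7, with no overlap (-0.72 ± 0.11, adjusted p = 0.000151), and Slc3a2 passed the adjusted p (-0.31 ± 0.08). The enzymes Psat1 (-0.53 ± 0.08), Phgdh (-0.49 ± 0.11), Psph (-0.47 ± 0.11) and Asns (-0.39 ± 0.07) passed the adjusted p, so all 3 enzymes of serine synthesis were lower. Asns was at a median of 278 CPM (249.6 to 327) with IgG and 217 (207 to 224) with anti-Ptk7, without overlap. Cth, which was far below complete media in both Wnt5a groups, did not pass between them (-0.07 ± 0.14, adjusted p = 0.888). Shmt2, Mthfd2, Pycr1, Sesn2 and Trib3 did not pass, with values from -0.31 to 0.15, nor did Atf4 (-0.26 ± 0.10, adjusted p = 0.154). Slc7a11 was at a median of 28.9 CPM (19.4 to 54.1) with IgG and 17.4 (11.3 to 26.5) with anti-Ptk7, with overlap (-0.87 ± 0.36, adjusted p = 0.212). It was lower with the antibody in 6 of 6 same-numbered pairs of libraries, as in SCM, and was called under the replicate block in Wnt5a (-0.82 ± 0.21, adjusted p = 0.0146). Slc3a2 passed in 4 and Pdia4 in 10 of the 12 fits without 1 library. In all, 14 of the 40 members were lower in Wnt5a + anti-Ptk7 with no overlap between the groups, against 1.43% of all genes, and 4 of 40 in SCM + anti-Ptk7, against 0.994%.

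**Figure D3:**
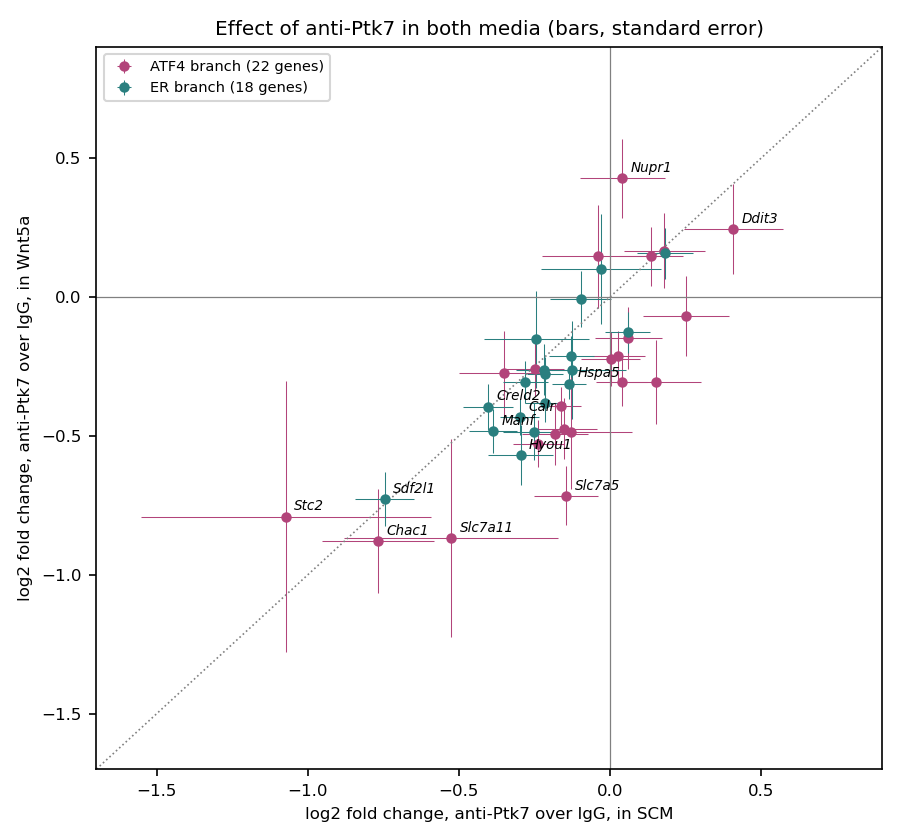
Log2 fold change of anti-Ptk7 over IgG in SCM (horizontal) and in Wnt5a (vertical) for the 40 members, with standard errors as bars, coloured by branch, and a dotted line of equal values. Chac1 and Sdf2l1 lay low on both axes (-0.77 and -0.88, and -0.75 and -0.73), while Slc7a5 was at -0.14 in SCM and -0.72 in Wnt5a. Stc2, the member with the lowest counts, had the lowest value in SCM (-1.07) and did not pass the adjusted p.

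The 2 antibody comparisons share no library. Of the 40 members, 26 had a value below 0 in both, 5 above 0 in both and 9 of opposite sign, and of all genes tested 5153 of 15497 were below 0 in both. The 7 members that passed the adjusted p in SCM all passed in Wnt5a, and 10 passed in Wnt5a alone, while among all genes 139 passed in both, 283 in SCM alone and 259 in Wnt5a alone. The test of the difference between the antibody effects found 0 members with edgeR, DESeq2 or voom, where edgeR called 0.0% of all genes, with 7 members at an unadjusted p under 0.05 in edgeR, beside 602 of all 15497 genes. By that rule 8 passed with DESeq2 and 6 with voom on TMM-scaled values. The largest difference was that of Slc7a5, at -0.57 ± 0.15 for the effect in Wnt5a less that in SCM (adjusted p = 0.999). Trib3 was at -0.46 ± 0.21 and Slc3a2 at -0.35 ± 0.12.

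The adjusted p was passed in no comparison by 12 members, namely the factors Atf5, Ddit3, Cebpb and Nupr1, the effector Stc2, Aldh18a1, Slc7a11, the mucosal sensor Ern2, the chaperones Dnajb9 and Canx, and Edem1 and Sel1l of ER-associated degradation. Of these, Ddit3, Cebpb, Nupr1, Stc2, Slc7a11 and Canx passed in a comparison under at least 1 alternative. Ddit3 was at a median of 8.36 CPM (7.45 to 9.85) in SCM + IgG and 10.7 (5.70 to 17.8) in SCM + anti-Ptk7 (0.41 ± 0.16, adjusted p = 0.184). Nupr1, a chromatin protein induced by stress, was at 93.1 (86.7 to 106) in Wnt5a + IgG and 115 (89.98 to 188) in Wnt5a + anti-Ptk7 (0.43 ± 0.14, adjusted p = 0.102). Both had overlapping groups. Cebpb was at 99.7 (84.8 to 104) in complete media and 119 (104 to 142) in QCM (0.31 ± 0.09, adjusted p = 0.105). Stc2, the lowest member, was at 5.05 (1.40 to 9.17) in complete media and 1.41 (0.0902 to 2.40) in Wnt5a + anti-Ptk7. The values of Edem1 and Sel1l against complete media or with anti-Ptk7 lay between -0.10 and 0.19.

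**Figure D4:**
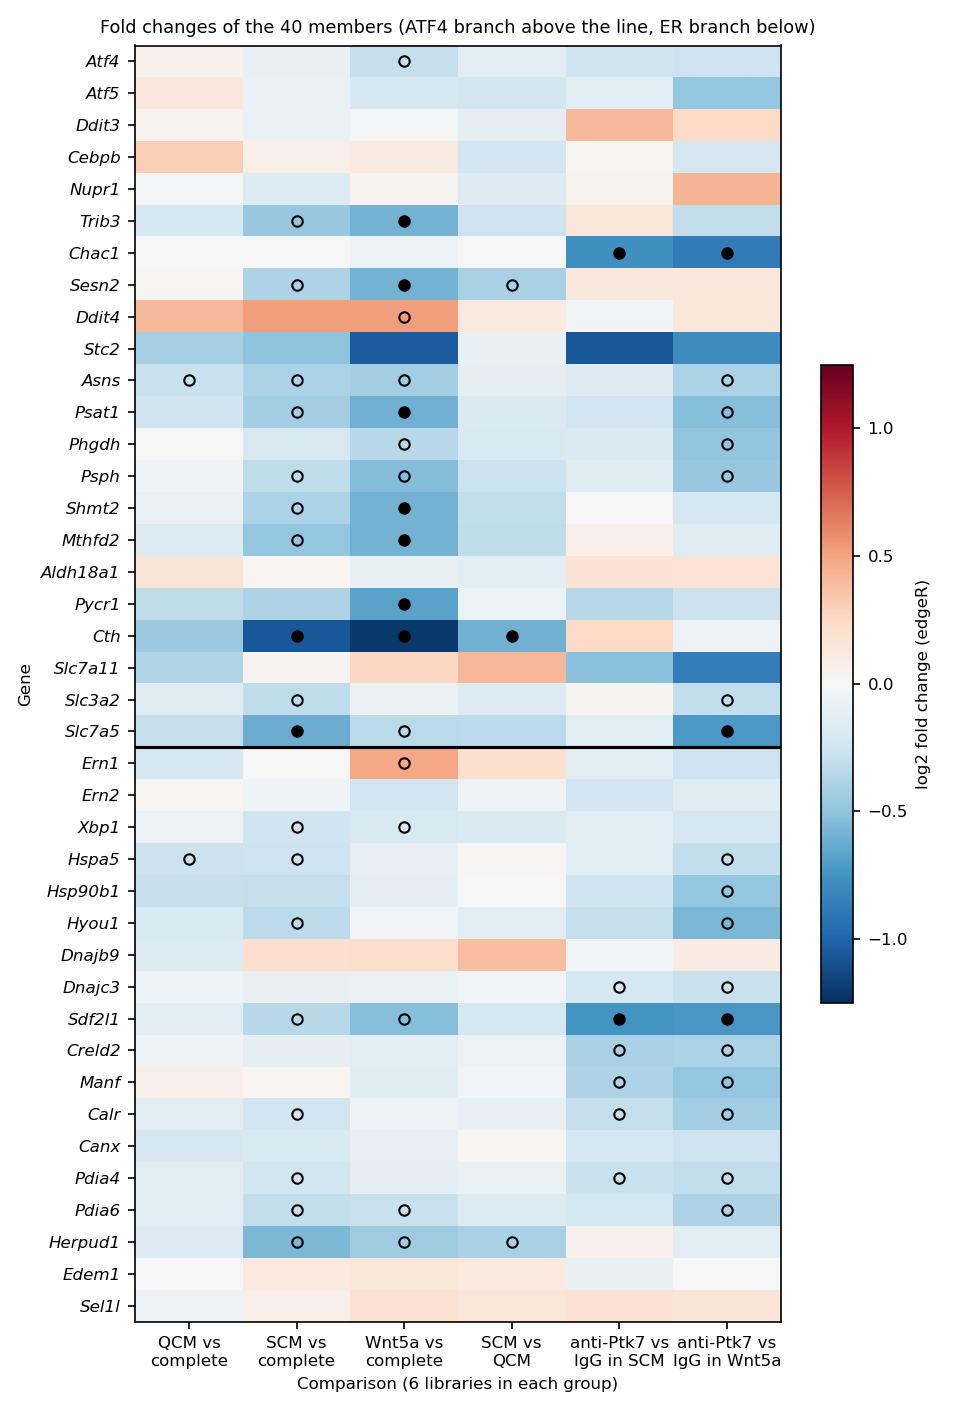
Log2 fold changes (colour) of the 40 members in 6 comparisons, each of 6 against 6 libraries, with filled circles for adjusted p under 0.05 and a fold over 1.5 and open circles for adjusted p alone. Of the 9 ATF4 branch enzymes 6 were lower in SCM and 8 in Wnt5a at the adjusted p. Of the 8 ER branch chaperones and co-chaperones, without the lectin chaperones and disulfide isomerases, 4 and 7 were lower with anti-Ptk7 in SCM and Wnt5a.

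Of 20 cytosolic tRNA synthetases, several of which ATF4 regulates, none was called by edgeR in any comparison, but 10 were lower at the adjusted p alone in SCM and 7 in Wnt5a, led by Vars in SCM (-0.47) and Yars in Wnt5a (-0.36), and 1 and 3 were lower with the antibody in SCM and Wnt5a. Of 21 sensors and regulators, Creb3l2, an ER-bound transcription factor (0.86), and Atf3, a stress factor downstream of ATF4 (0.77), were called higher in Wnt5a, and Eif2ak3, the eIF2 kinase PERK, passed the adjusted p alone (0.56). With the antibody none of the 21 passed by edgeR, with 2 at an unadjusted p under 0.05 in each medium. By that rule there were 2654 of all 15497 genes with the antibody in SCM and 2332 in Wnt5a. Of 32 further genes of ER translocation, folding and degradation, 1 was called, Pdia5 with the antibody in Wnt5a (-0.63), and 5 were lower there at the adjusted p alone, among them Sil1 (-0.50), Pdia3 (-0.32) and Sec61a1 (-0.29). Of 12 cytosolic heat shock genes tested, 5 were lower with the antibody in Wnt5a at the adjusted p, with Hsp90aa1 called (-0.62), and Hspa1b was called higher in Wnt5a (1.40). Of 10 targets of the oxidative stress factor Nrf2, Hmox1 and Me1 were called higher in SCM (0.92 and 0.78) and in Wnt5a (1.19 and 1.01). Over all genes, 4.45% were lower at the adjusted p in SCM and 9.4% in Wnt5a, 4.96% and 8.29% were called higher, and 1.44% and 1.52% were lower with the antibody in SCM and Wnt5a. The 2 of 21 sensors and regulators and 1 of 12 heat shock genes called higher in Wnt5a are near the share of all genes. Of the sensors and regulators, Atf6b was lower at the adjusted p alone in SCM (-0.40) and Wnt5a (-0.28), as was the eIF2B subunit gene Eif2b4 (-0.23 and -0.21). The subunit genes Eif2b1 (-0.42) and Eif2b5 (-0.26) were lower in Wnt5a.

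Markers of the cell types with much ER were measured beside these changes. None of 10 goblet markers passed in any comparison by edgeR, with 2 at an unadjusted p under 0.05 in each antibody comparison. By that rule there were 2654 of all 15497 genes with the antibody in SCM and 2332 in Wnt5a. The sum of the 10 goblet markers ranged from 1421 to 2873 CPM in Wnt5a + IgG and from 1677 to 2873 CPM in Wnt5a + anti-Ptk7. Of 7 Paneth markers tested, Lyz1 was lower with the antibody in SCM (-0.54, adjusted p alone) and called in Wnt5a (-0.63). At an unadjusted p under 0.05 there were 4 of the 7 in SCM and 6 in Wnt5a (against the same 2654 and 2332 of all 15497 genes), with median log2 fold changes of -0.37 and -0.54 over the 7. In Wnt5a these included Defa17 (-0.67), Defa24 (-0.54) and Defa30 (-0.72), and Ang4 with the opposite sign (0.39). The sum of 8 markers ranged from 3389 to 4587 CPM in SCM + IgG, 2729 to 4412 in SCM + anti-Ptk7, 2069 to 3986 in Wnt5a + IgG and 1788 to 3696 in Wnt5a + anti-Ptk7. Of 7 enteroendocrine markers, Cck, Gip and Sct were called lower with the antibody in SCM and Cck and Gip in Wnt5a, and their sum was 385 to 567 and 348 to 474 CPM in SCM with IgG and antibody, and 433 to 579 and 463 to 517 CPM in Wnt5a. Against complete media the Paneth markers Ang4 and Mmp7 and the enterocyte markers Alpi, Apoa4 and Fabp1 were called higher in SCM and Wnt5a and the enterocyte marker Anpep lower. In QCM, Ang4 (0.65), Alpi (0.86), Apoa4 (0.74) and Fabp1 (0.76) were called higher as well. Itln1 and Lyz1 were lower in Wnt5a at the adjusted p alone. With anti-Ptk7, Alpi was called lower in both media (-0.58 and -0.72), and no other of the 7 enterocyte markers passed the adjusted p. Their median was -0.03 in SCM and -0.35 in Wnt5a, and Fabp1 was at 0.38 and 0.27. Of 5 stem markers, Smoc2 was called lower in SCM (-0.77) and Wnt5a (-0.67) and Ascl2 was higher at the adjusted p alone (0.51 and 0.41). In Wnt5a 3 of 5 tuft markers tested were called higher. Of 6 proliferation markers, Mcm5 was lower in SCM (-0.25), Mcm5 and Cdk1 in Wnt5a (-0.32 and -0.34) and Cdk1 with the antibody in Wnt5a (-0.32), all at the adjusted p alone. The part of these cell types in the changes of the 40 genes was not tested.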

How the data were processed

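RNA of 36 organoid libraries was sequenced from Smart-Seq v4 cDNA, a kit that does not keep the strand, so that a gene and an antisense partner cannot be told apart. The authors aligned the reads to mm10 with GSNAP through HTSeqGenie and deposited whole-number counts per gene from reads within coding sequences, without normalization. The annotation they counted with is not given in the sources used here. A table with the same counts of the whole series was not used.

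Symbols, positions and exon lengths were taken from the GENCODE annotation of GRCm38. Groups and replicate numbers came from the labels. Counts were tested with edgeR 4.0.16 (R 4.3.3) in 1 model of 6 group means after filterByExpr and TMM scaling. CPM are TMM-scaled, and log2 CPM used a prior count of 2. Library totals had a median of 13490071, and replicates of a group differed by a chi-square per gene of 7.33 to 82.0, so replicate spread exceeded counting error and no 2 libraries agreed within sampling noise. On simulated data for SCM against complete media, with 200 of 15240 genes changed by a fold of at least 2, edgeR recovered 151 with 5 false calls. Most changes of the members were smaller, and recovery at such folds was not simulated.

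Alternatives were voom with limma 3.58.1 (quantile-normalized, the study's method, or TMM), DESeq2 1.42.0, other scalings, filters and thresholds, glmTreat, the replicate block, only the groups compared, each library left out and, added after the data were seen, replicate 1 of every group left out. The 40 members, their branches and the other lists were chosen with earlier results of these data known. All 40 members are covered, with values per group for those called in any comparison, and of the other lists at most 4 called genes per comparison are named, with some that passed the adjusted p alone named after their values were seen. Promoter windows are from RefSeq (GRCm38.p6).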

Additional observations from a re-analysis of the deposited data

Results flagged for a closer look

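In 10 of the 252 sets of 6 libraries examined (40 members and both branch levels in 6 groups), the lowest or highest library was separated from the others by more than Dixon's 95% critical value allows, which chance exceeds in about 1 set in 20. Aldh18a1, the proline synthesis enzyme, was lowest in replicate 1 of 4 groups, and stood apart in 3 of these, at 415 CPM in SCM + IgG (others 612 to 757), at 400.0 CPM in Wnt5a + IgG (others 609 to 697) and at 502 CPM in Wnt5a + anti-Ptk7 (others 674 to 777), and it did not pass the adjusted p in any comparison. Replicate 1 was also lowest for Pdia4 in SCM + IgG, at 267 CPM (others 339 to 388), and for Dnajc3 in SCM + anti-Ptk7, at 130.4 CPM (others 141 to 148). Trib3 was lowest in Wnt5a + IgG replicate 2, at 13.5 CPM (others 20.6 to 22.95), and Asns in QCM + IgG replicate 2, at 276 CPM (others 315 to 338). Phgdh was highest in Wnt5a + IgG replicate 3, at 28.5 CPM (others 19.4 to 21.95), Nupr1 in QCM + IgG replicate 3, at 120 CPM (others 76.2 to 89.3), and Xbp1 in complete media + IgG replicate 2, at 545 CPM (others 419.5 to 446). The cause was not tested.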

How the results depend on the processing

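None of the 65 changes that passed the adjusted p changed direction under the alternatives run on them: of 650 values, 541 kept their side of the threshold, 109 no longer passed and 0 reversed, and 63 of the 109 were from glmTreat, which tests against a fold of 1.5. All 20 branch medians under a prior count of 0.5 or library size alone stayed within 1 SD. The number of called members was 0 in QCM, 2 in SCM, 7 in Wnt5a, 1 in SCM against QCM, and 2 and 3 with anti-Ptk7 in SCM and Wnt5a. With no fold threshold these were 2, 18, 18, 3, 7 and 17, with a fold over 2 they were 0, 1, 1, 0, 0 and 0, and with glmTreat 0, 1, 1, 0, 0 and 0. With at least 10 counts in every library 3 were called in Wnt5a (Cth, Pycr1 and Psat1), the other 4 passing the adjusted p but not the fold. With only the groups compared 1 was called with anti-Ptk7 in SCM. Without replicate 1 of every group, chosen after the data were seen, 4 were called in Wnt5a and 0 in SCM against QCM, with 15 and 13 members lower at the adjusted p in SCM and Wnt5a and 9 and 17 with anti-Ptk7. With 1 library left out at a time the numbers were 0 in QCM, 2 to 4 in SCM, 3 to 8 in Wnt5a, 0 to 1 in SCM against QCM, 2 with anti-Ptk7 in SCM, 3 to 4 in Wnt5a and 0 for the difference between them. The replicate numbers are shared between groups without a stated link to a mouse, and same-numbered libraries of different groups had a mean correlation of deviations of 0.092, against -0.018 for other numbers, with 34 of 90 pairs over 0.1 and 16 of 36 libraries closest to their own number. Under the replicate block 8 members were called in Wnt5a and 4 with anti-Ptk7 in Wnt5a, Stc2 and Slc7a11 being the members added, and all 65 changes still passed. The members Stc2 and Dnajb9 had at most 10.8 and 13.8 CPM in any library, and the part of depth in their results was not tested.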
